A study of Mus musculus with 2 samples.

Results

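The 91 Igfbp5-rich cells were Dcn-positive cells of the mouse anterior eye that carried much Igfbp5 RNA and little RNA of the other stromal landmark genes. Insulin-like growth factor binding protein 5, the product of Igfbp5, is secreted by fibroblasts and binds both insulin-like growth factors and the extracellular matrix. Fibroblasts of the front of the eye derive in large part from the periocular mesenchyme, which contains cranial neural crest. They form the stroma of the ciliary body and iris, the trabecular meshwork that drains aqueous humour, the sclera and the corneal stroma. Retinoic acid made by the developing eye acts on this mesenchyme, and the forkhead factor Foxc1 is needed there for a normal anterior segment.

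The study profiled single cells in droplets from dissected ciliary epithelium of untreated wild-type C57BL/6 mice at postnatal day 35. It holds 2 libraries of 1 group, each a single pool of tissue dissociated with collagenase. Library 1 pooled 3 sets of eyes, and for library 2 the labels give 3 sets in one field and 4 in another. Both are wild type, with no transgene, treatment or second age, so the comparisons below are between sets of cells within the same libraries and n = 2 libraries throughout. Values are counts of unique molecular identifiers (UMIs), each a captured RNA molecule, or CPM, a set's summed count of a gene scaled to a common total of UMIs.

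Cells were chosen by their counts alone. A cell had at least 500 detected genes, at most 30% mitochondrial UMIs, at least 3 UMIs of Dcn, which encodes the collagen-binding proteoglycan decorin, and at least 10 UMIs of Igfbp5. It had at most 2 UMIs of Chil1, a chitinase-like gene of trabecular meshwork cells, and at most 1 of Lum, which encodes the stromal proteoglycan lumican. Acta2 and Tagln, genes of contractile cells, could sum to at most 2 UMIs, and the endothelial adhesion genes Pecam1 and Cdh5 had to be at 0. The rule found 45 of 3865 filtered cells in library 1 (1.16%, exact binomial 95% interval 0.850 to 1.55%) and 46 of 5466 in library 2 (0.842%, interval 0.617 to 1.12%). Altogether 91 of 9331 cells, and 91 of 1957 Dcn-positive cells without endothelial UMIs, were Igfbp5-rich.

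The 8 gate genes fix what these cells look like, so their levels are a description. In library 1 the Dcn minimum left 1356 cells, the Igfbp5 minimum 760, the Lum limit 181, the Chil1 limit 86, the contractile limit 50 and the endothelial limit 45. In library 2 the same limits left 718, 432, 145, 76, 54 and 46 cells. The Lum limit thus removed most of the cells with 10 or more Igfbp5 UMIs in both libraries. Just inside the Igfbp5 minimum lay 8 cells of library 1 and 5 of library 2 with 10 to 12 UMIs, and just outside it lay 5 and 11 cells with 8 or 9. Igfbp5 had a median of 20 UMIs per Igfbp5-rich cell in each library, with a range of 10 to 77 in library 1 and 10 to 185 in library 2.

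The other 4 sets, all of Dcn-positive cells without endothelial UMIs, served for comparison. Chil1-rich cells had at least 3 Chil1 UMIs within the Lum and contractile limits, at any level of Igfbp5 (78 in library 1 and 56 in library 2). Lum-rich cells had at least 2 Lum UMIs within the Chil1 and contractile limits, at any level of Igfbp5 (527 and 249). Igfbp5-low cells met every limit of the Igfbp5-rich cells except that they had at most 2 Igfbp5 UMIs (31 and 54). Contractile cells had at least 3 UMIs of Acta2 and Tagln within the Chil1 and Lum limits, at any level of Igfbp5 (72 and 28). Genes that vary together with Lum, Chil1 or Igfbp5 in single cells can differ between these sets through the choice of cells itself. Median UMIs per cell were 3092 and 3842.5 in Igfbp5-rich cells, 4338 and 6716 in Chil1-rich cells, 4916 and 4698 in Lum-rich cells, and 2337 and 2275 in Igfbp5-low cells, so the Igfbp5-rich cells were shallower than both landmark sets.

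Promoters of 3 genes that mark these contrasts are shown, as the 250 bases before the transcription start in the RefSeq annotation of GRCm38.p6. Igfbp5 chose the cells, Myoc is uneven among them and higher than in Igfbp5-low cells, and Mmp3 has the lowest fold change of the genes called against Lum-rich cells. Igfbp5 lies at chr1:72874866-72875115 on the minus strand, Myoc at chr1:162638900-162639149 and Mmp3 at chr9:7445572-7445821, both on the plus strand. Capitals mark matches, on either strand, to TATAAA, the TATA box, and TGANTCA, the AP-1 element. AGGTCA, a nuclear receptor half-site, was searched as well and had no match in these windows.
Igfbp5: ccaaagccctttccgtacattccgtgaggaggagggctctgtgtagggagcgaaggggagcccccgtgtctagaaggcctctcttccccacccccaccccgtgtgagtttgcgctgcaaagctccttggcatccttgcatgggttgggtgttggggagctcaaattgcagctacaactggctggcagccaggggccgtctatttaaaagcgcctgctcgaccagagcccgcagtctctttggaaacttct
Myoc: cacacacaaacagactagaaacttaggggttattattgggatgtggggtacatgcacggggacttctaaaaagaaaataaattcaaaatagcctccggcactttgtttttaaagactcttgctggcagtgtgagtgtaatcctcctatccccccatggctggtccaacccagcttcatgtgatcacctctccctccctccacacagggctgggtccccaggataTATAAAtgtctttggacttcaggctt
Mmp3: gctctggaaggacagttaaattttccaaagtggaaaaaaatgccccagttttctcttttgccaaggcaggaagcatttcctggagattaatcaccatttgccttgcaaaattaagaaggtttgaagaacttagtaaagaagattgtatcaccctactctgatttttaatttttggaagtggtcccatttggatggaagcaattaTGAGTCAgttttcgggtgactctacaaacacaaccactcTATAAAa

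Among these windows the Myoc one held 1 TATAAA and the Mmp3 one held 1 TATAAA and 1 TGANTCA, while the Igfbp5 one held none of the 3 motifs. Of the 32851 windows of the same length in the table, 12.4% held TATAAA, 6.75% TGANTCA and 14.0% AGGTCA. A match describes the letters only.

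In library 2, 5 Igfbp5-rich barcodes stood apart by their depth. They held more than 10000 UMIs each and together 51.4% of the 321339 UMIs of the Igfbp5-rich cells in that library, against 0 such barcodes among the 45 cells of library 1, with 162566 UMIs. The barcode of 12000 UMIs carried 273 UMIs of Dct and 123 of Mlana, pigment-cell genes. That of 16860 UMIs carried 213 of Cd74 and 66 of C1qa, genes of antigen-presenting cells and macrophages. The barcodes of 29852 and 32795 UMIs carried 107 and 113 UMIs of Nefl, a neurofilament gene, and 56 and 67 of Sncg, a synuclein gene of neurons. The deepest, of 73569 UMIs, carried 249 UMIs of Opn1sw, the short-wavelength cone opsin gene, and 132 of Calb2, which encodes calretinin. Igfbp5 made up 1.90 to 33.8 of every 10000 UMIs in these barcodes, against a median of 75.3 in the other 41 cells of library 2 and 74.4 in library 1. Doublets were not removed by a caller, and whether these barcodes hold more than 1 cell was not tested. Results are therefore given with and without barcodes over 10000 UMIs in every set, a limit chosen after the data were seen.

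**Figure D1:**
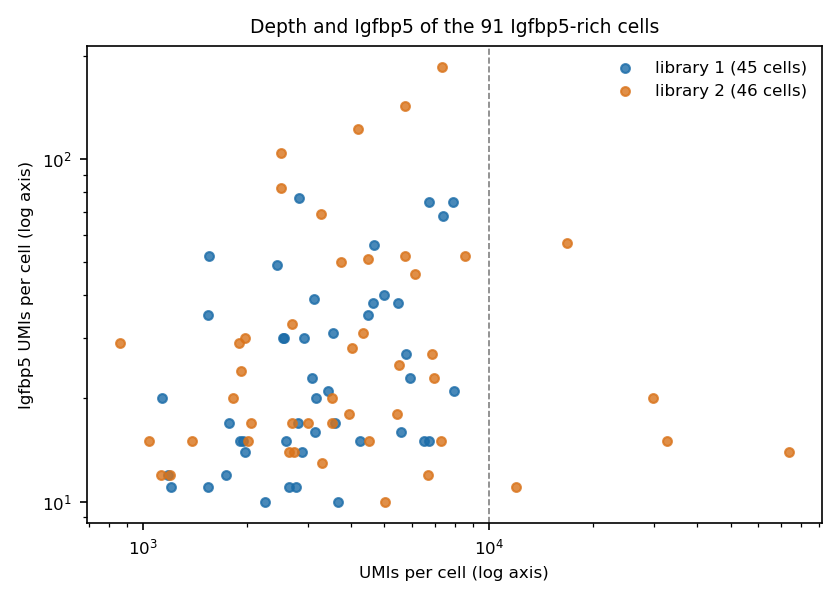
UMIs per cell (x axis, log scale) against Igfbp5 UMIs per cell (y axis, log scale) for the 91 Igfbp5-rich cells, 1 point each, blue for library 1 and orange for library 2. The dashed line marks 10000 UMIs, and 5 cells, all of library 2, lie to its right.

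Fibroblast genes beyond the rule were detected, and the uveal label could not be tested from these counts. All 12 fibroblast markers were detected in both libraries, but Dcn is one of them and was required by the rule. Dcn held 1739 of the 3744 UMIs of that list in library 1 and 1992 of 4972 in library 2. Col1a2, a chain of type I collagen, had a UMI in 41 of 45 and 45 of 46 Igfbp5-rich cells. Pdgfra, the platelet-derived growth factor receptor of many fibroblasts, had one in 11 of 45 and 16 of 46. Trabecular meshwork markers were detected for 10 of 10 genes in library 1 and 9 of 10 in library 2, summing to 8304 and 3193 CPM, or 5932 CPM in library 2 without the deep barcodes. Sclera markers summed to 1692 and 980 CPM, or 1849 CPM in library 2 without the deep barcodes. Corneal stroma markers summed to 639.7 and 2104 CPM, or 922 CPM in library 2 without them. The trabecular list holds Chil1, and the corneal and sclera lists hold Lum, which the rule limits. Fmod is on both the trabecular and sclera lists, and Angptl7 on both the trabecular and corneal lists. Chad of the sclera list stood at 1068 and 897 CPM in Chil1-rich cells. These sums therefore do not rank the tissues. The endothelial list holds Pecam1 and Cdh5, which the rule requires at 0. Endothelial markers summed to 86.1 and 106 CPM, and the T, NK and B cell markers were at 0 in both libraries. Markers of the non-pigmented ciliary epithelium were detected for 4 of 7 genes in library 1 (246 CPM) and 5 of 7 in library 2 (261 CPM), with Best2 and Pdyn at 0 in both.

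Rod RNA was present among the Igfbp5-rich cells, at 1366 CPM over 7 markers in library 1 and 8029 CPM in library 2, or 4556 CPM in library 2 without the deep barcodes. Melanocyte markers summed to 412 CPM in library 1 and 4799 CPM in library 2, and to 736 CPM in library 2 without the deep barcodes, with Kit and Sox10 then at 0. Macrophage markers stood at 55.4 and 741 CPM, and at 38.4 CPM in library 2 without the deep barcodes, where C1qa, Csf1r and Cx3cr1 were at 0. The part of free RNA in the levels of other genes was not tested.

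Nr2f1, Crabp2 and Foxc1 were given with the Igfbp5-rich cells as their markers, and few cells had all 3. Whether they occur together less often than their single frequencies give was not tested. Nr2f1 encodes an orphan nuclear receptor, and Crabp2 carries retinoic acid to its nuclear receptors. Of the Igfbp5-rich cells, 0 of 45 in library 1 and 2 of 46 in library 2 had a UMI of all 3 genes, while 10 and 14 cells had none of them. Nr2f1 was detected in 11 of 45 and 14 of 46 cells, Crabp2 in 16 and 11, and Foxc1 in 26 and 27. Only 1 of 45 and 2 of 41 cells of at most 10000 UMIs carried both Nr2f1 and Crabp2.

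Shares in rods were taken as a guide to free RNA of these genes, at a median of 1175 UMIs per rod in library 1 and 2132 in library 2. The rods had at least 10 summed UMIs of Sag, Gnat1 and Pdc and none of Dcn. Leaving out rods with Dcn RNA can make these shares lower than the free-RNA level. Nr2f1 was found in 24.4% and 30.4% of Igfbp5-rich cells, against 1.02% and 7.95% of rods. Crabp2 was found in 35.6% and 23.9%, against 0 of 391 rods in library 1, which allows a share of up to 0.767%, and 1.26% in library 2. Foxc1 was found in 57.8% and 58.7%, against 0.512% and 1.71%. With each cell thinned to 2000 UMIs, Nr2f1 was found in 17.6% and 16.2% of Igfbp5-rich cells, against 1.87% and 4.49% of rods, from 34 and 37 Igfbp5-rich cells deep enough to thin.

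Each of the 3 genes was shared with another set. Nr2f1 stood at 160 CPM in library 1 and 71.6 CPM in library 2 in Igfbp5-rich cells, at 12.4 and 30.8 CPM in Chil1-rich cells and at 139 and 262 CPM in Lum-rich cells. Crabp2 showed the other order, with 228 and 103 CPM in Igfbp5-rich cells, 283 and 342 CPM in Chil1-rich cells and 46.4 and 75.9 CPM in Lum-rich cells. Foxc1 stood at 264 and 184 CPM in Igfbp5-rich cells, 169 and 182 CPM in Chil1-rich cells and 109 and 275 CPM in Lum-rich cells, so the sets overlapped. In library 2 without the deep barcodes, Igfbp5-rich cells held 115 CPM of Nr2f1, 198 CPM of Crabp2 and 333 CPM of Foxc1. Igfbp5 itself stood at 7640 and 5160 CPM in Igfbp5-rich cells, or 9862 CPM in library 2 without the deep barcodes, against 7670 and 6702 CPM in Chil1-rich cells and 3292 and 4428 CPM in Lum-rich cells.

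**Figure D2:**
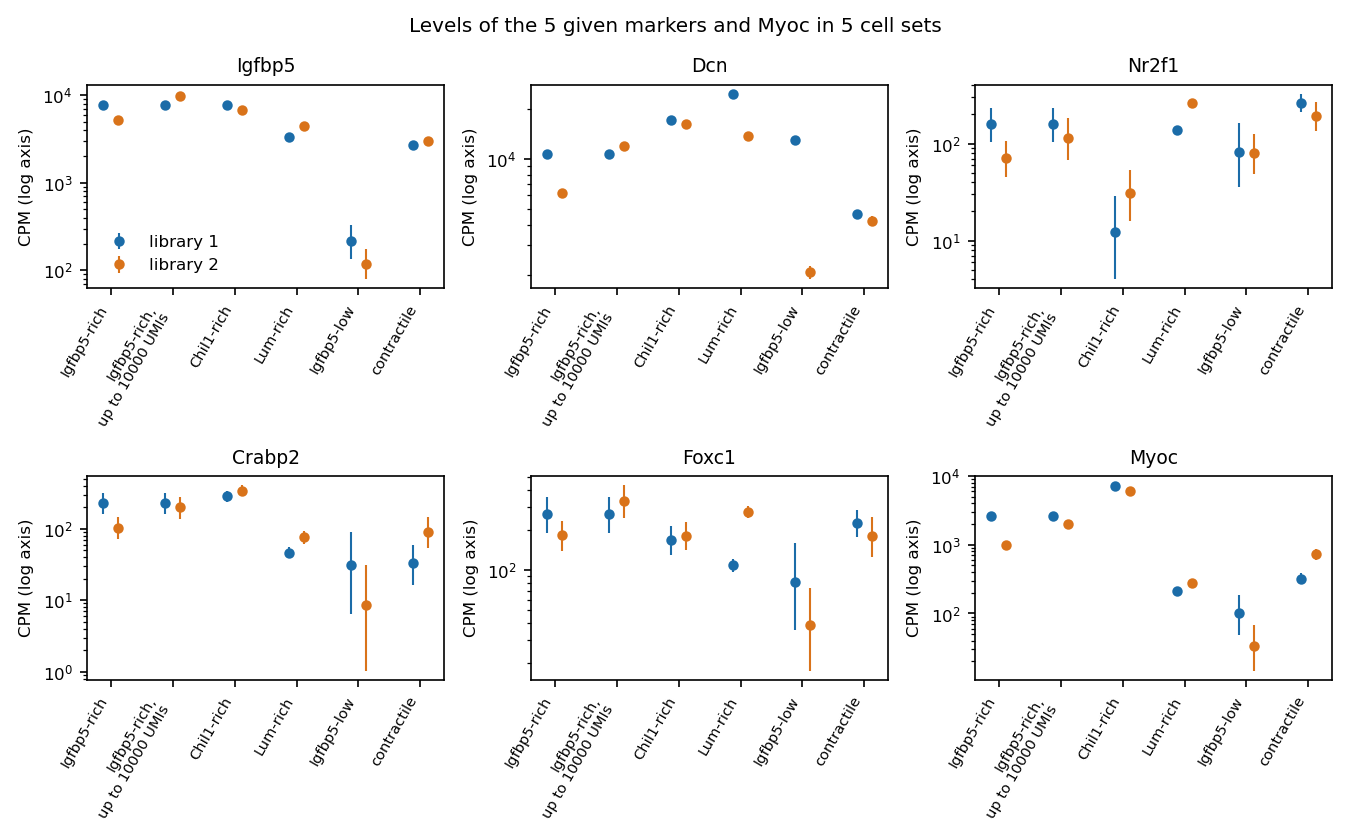
Levels of the 5 given markers and of Myoc (y axes, CPM of summed counts, log scale) in Igfbp5-rich cells, with and without barcodes over 10000 UMIs, and in the 4 other sets. Points are libraries and bars are exact Poisson 95% intervals, which cover counting error only. Nr2f1 lies lowest in Chil1-rich cells, and Crabp2 lies higher in Igfbp5-rich and Chil1-rich cells than in Lum-rich cells.

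The Igfbp5-rich cells differed among themselves, and Myoc and Tfap2b were detected in the same cell in few cells of either library. Among cells of at most 10000 UMIs, Myoc was detected in 23 of 45 cells in library 1 and 23 of 41 in library 2, and Tfap2b in 13 and 9. Myoc encodes myocilin, a glaucoma protein made in quantity by trabecular meshwork cells, and Tfap2b a neural crest transcription factor. Both genes were found in the same cell in 2 cells of each library. Whether any pair of genes here occurs together more or less often than the single frequencies give was not tested. Rgs5, a regulator of G-protein signalling often used to mark pericytes, was found in 22 and 21 cells, with Myoc in 17 and 13 of them and with Tfap2b in 2 and 2. Nr2f1 accompanied Tfap2b in 8 of 13 and 7 of 9 cells.

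Myoc was uneven among the cells. It had 12 cells in library 1 and 9 in library 2 with 10 or more UMIs, a highest value of 78 and 95 UMIs, and 22 cells at 0 in each library. Its share of cells was 51.1% and 52.2%, against 0.512% and 2.97% of rods. Of the other pericyte markers, Higd1b was at 0 in both libraries, Abcc9 was found in 1 of 45 and 0 of 46 cells, and Kcnj8 in 4 and 5. Cspg4 was found in 4 and 6 cells, Vtn in 2 and 12 and Notch3 in 10 and 4, so 6 of the 7 markers were detected in library 1 and 5 in library 2.

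To place each cell, its counts without the gate genes were compared with the summed profiles of 8 sets, which are the 4 stromal sets and rods, macrophages, melanocytes and T cells. The nearest profile was that under which the cell's counts were most likely. In library 1, 25 of the 45 Igfbp5-rich cells were nearest to the Chil1-rich profile, 13 to the Lum-rich, 6 to the contractile and 1 to the rod profile. In library 2, 13 of 46 were nearest to the Chil1-rich profile, 26 to the Lum-rich, 4 to the rod profile and 1 each to the Igfbp5-low, macrophage and melanocyte profiles. Of the Chil1-rich cells, 92.3% in library 1 and 64.3% in library 2 were nearest to their own profile, and of the Lum-rich cells 78.9% and 89.2%. Contractile cells did so for 61 of 72 cells in library 1 and 0 of 28 in library 2, and Igfbp5-low cells for 0 of 31 and 7 of 54, so a lack of Igfbp5-rich cells near those profiles is not informative where their own cells do not return. Of the Chil1-rich cells, 4 of 78 in library 1 and 17 of 56 in library 2 were nearest to the Lum-rich profile. Of the Lum-rich cells, 22 of 527 and 15 of 249 were nearest to the Chil1-rich profile. The order of the 2 main profiles among the Igfbp5-rich cells differed between the libraries. Whether the cells or the placing set that order was not tested.

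**Figure D3:**
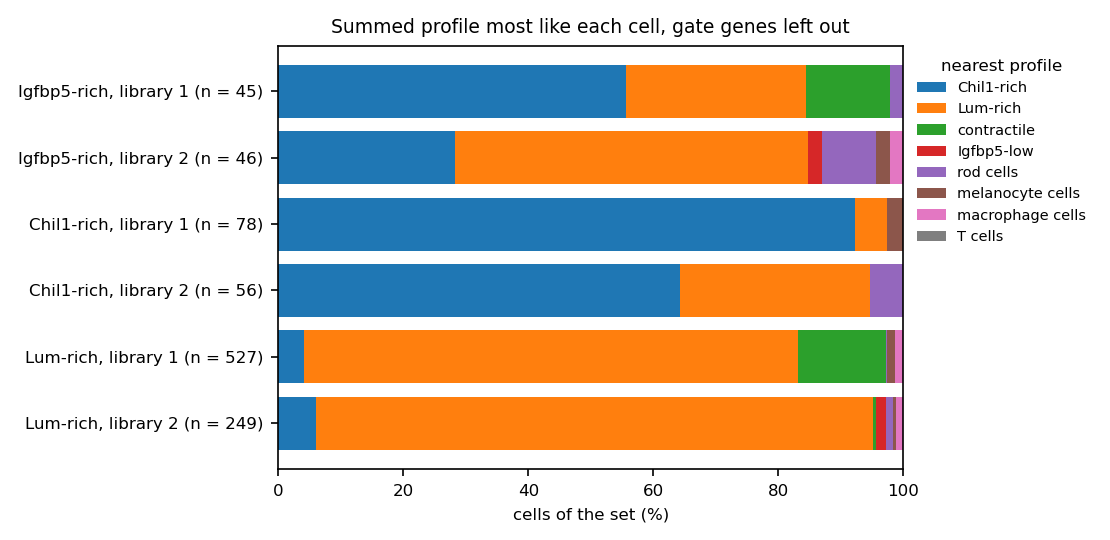
Share of cells (x axis, percent) of the Igfbp5-rich, Chil1-rich and Lum-rich sets in each library by the summed profile nearest to the cell, with the gate genes left out. The Igfbp5-rich cells divide mainly between the Chil1-rich and Lum-rich profiles, at 55.6% and 28.9% in library 1 and 28.3% and 56.5% in library 2.

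Cells near either profile differed in the genes that took part in the placing, which is again a description. In Igfbp5-rich cells of at most 10000 UMIs, Myoc stood at 4537 and 5968 CPM near the Chil1-rich profile and 144 and 720 CPM near the Lum-rich one. Nr2f1 had 1 and 0 UMIs near the Chil1-rich profile, against 12 and 16 UMIs near the Lum-rich one. Cxcl12, a chemokine of many stromal cells, had 12 and 0 UMIs in 25 and 13 cells near the Chil1-rich profile, against 44 and 43 UMIs in 13 and 26 cells near the Lum-rich one. Chad, which encodes the matrix protein chondroadherin, had 25 and 28 UMIs near the Chil1-rich profile, against 1 and 3 near the Lum-rich one. Tfap2b was densest in the 6 cells of library 1 near the contractile profile, where each cell had it and its level was 1937 CPM, against 144 CPM in cells of that library near the Lum-rich profile. These 6 cells had 0 UMIs of Myoc and 11 of Nr2f1.

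Clustering of the 91 cells alone gave 2 sub-clusters at a resolution of 0.5, and the split followed the library. The first held 44 cells of library 1 and 16 of library 2 and was led by Fmod, Glrx3, Lsm1, Lsm3 and Col1a1. The second held 1 and 30 cells and was led by Ccl2, Rtbdn, A930011O12Rik, Nrl and Cxcl1. Nrl is the transcription factor of rods, and Ccl2 and Cxcl1 are chemokines. The first sub-cluster held cells of both libraries, while for the second, library and sub-cluster cannot be told apart.

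At a resolution of 1 the cells gave 6 sub-clusters, of which 3 held at least 3 cells of each library. Sub-cluster 2 (12 cells of library 1 and 6 of library 2) was led by Tfap2b, Dach1, Lbh, Dct and C4b. Tfap2b had a UMI in 13 of its 18 cells, against 10 of the other 73. It carried Cxcl12 in 12 of 12 and 3 of 6 cells, and Myoc in 1 of 12 and 0 of 6. Dct owes its place to the barcode of 12000 UMIs, with 273 of the 276 UMIs in library 2.

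Sub-cluster 6 (3 cells of library 1 and 6 of library 2) was led by Fmod, Sfrp2, Angptl7, Matn4 and 1500015O10Rik. Fmod encodes fibromodulin, a proteoglycan of collagen-dense tissue, and had a UMI in 8 of the 9 cells, against 14 of the other 82. These cells held 379 of the 540 Col1a1 UMIs of Igfbp5-rich cells in library 1 and 1087 of 1263 in library 2. Scx and Tnmd, tendon genes also found in sclera, were detected in 2 of 3 cells of library 1 and 4 of 6 of library 2. Edn3 and Rgs5 were at 0 in all 9 cells. Type I collagen in the Igfbp5-rich cells was thus held mostly by few cells, with a median Col1a1 count of 3 and 4 UMIs per cell and highest values of 243 and 619.

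Sub-cluster 3 (5 cells of library 1 and 3 of library 2) was led by 1700018A04Rik, Mthfsl, Timm10, Zfp580 and Sept1, each with a UMI in at most 6 of its 8 cells. Sub-cluster 1 held 23 cells, all of library 1, and was led by Aspn, Prss23, I830012O16Rik, Plp2 and Gsto1. Of its cells, 18 had Myoc and 19 had Rgs5, and 20 were nearest to the Chil1-rich profile. Ifit3 and Isg15, interferon-induced genes, were found in 11 and 12 of them.

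The remaining sub-clusters 4 and 5 held nearly no cells of library 1. Sub-cluster 4 (1 and 16 cells) was led by Snap25, Neurod1, Rdh12, Opn1sw and Cul9, of which the first 4 are genes of neurons and photoreceptors. Sub-cluster 5 (1 and 15 cells) was led by Ccl2, Ccl7, Il6, Cxcl10 and Map3k8. Atf3, an immediate response gene, had 143 UMIs in 12 of its 15 cells of library 2, and Apod, which encodes the lipid carrier apolipoprotein D, had 218 UMIs in 10 of them.

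**Figure D4:**
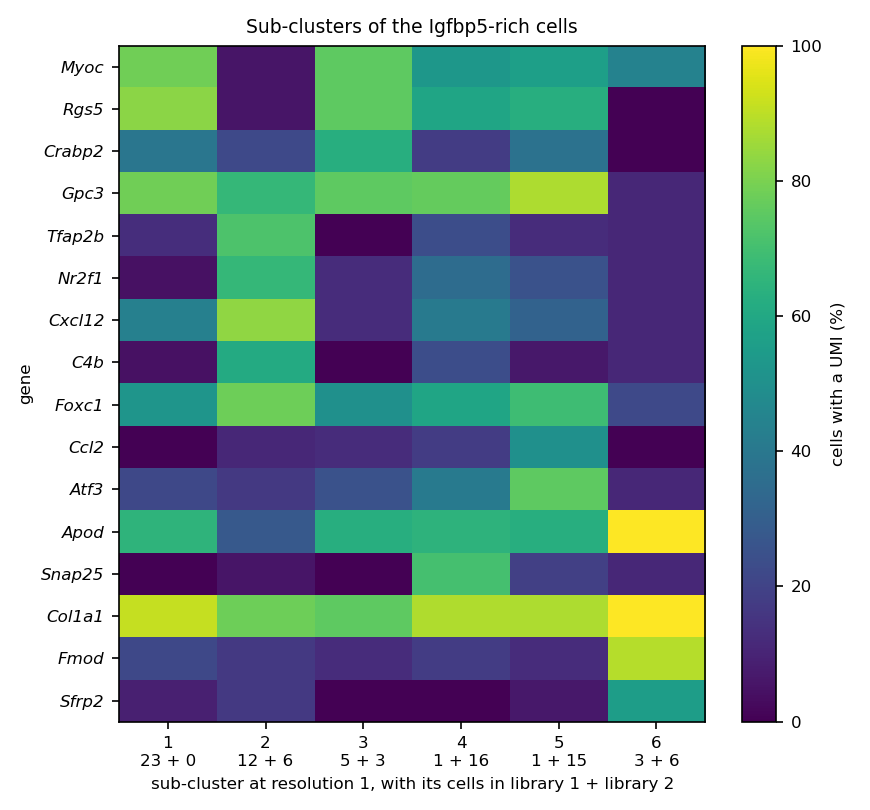
Share of cells with a UMI (colour, percent) of 16 genes (rows) in the 6 sub-clusters of Igfbp5-rich cells at resolution 1 (columns, with the number of cells in library 1 and library 2). Myoc and Rgs5 are frequent in sub-clusters 1 and 3 and rare in sub-cluster 2, where Tfap2b and Nr2f1 are frequent, and Fmod and Sfrp2 are frequent in sub-cluster 6.

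Counts were then summed per set and library, and the Igfbp5-rich sums were compared with 3 other sets by edgeR's quasi-likelihood test with library as a block. Calls needed 2 things, a p below 0.05 after Benjamini-Hochberg adjustment and a log2 fold change of 1 or more in either direction. The fit held 10 sums of 5 sets and left 4 residual degrees of freedom, so it takes the spread from all sets together. The gate genes were left out of the counts of calls. Without the library block, edgeR called 0 genes in each of the 3 comparisons, with 256, 309 and 365 at an unadjusted p under 0.05, so every call of the fit over all barcodes rests on that block. The fit without barcodes over 10000 UMIs was run only with the block. Without cells holding markers of other types, 0 genes were called against Igfbp5-low cells and 3, all lower, against Lum-rich cells. Such cells had 3 or more summed UMIs of 15 genes, among them the pericyte markers Rgs5 and Kcnj8. Igfbp5-rich cells with 3 or more Rgs5 UMIs are thus dropped too, and 25 and 21 cells were left, so this setting also changes the set itself.

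Few genes were called against Chil1-rich cells. Of 7081 genes tested, 2 were higher in Igfbp5-rich cells (0.0282%) and 1 was lower (0.0141%), with 584 at an unadjusted p under 0.05 and a median log2 fold change of 0.02. Both higher calls, Sncg and Opn1sw, rested on the deep barcodes. Sncg had 1 UMI in library 1 and 167 in library 2 in Igfbp5-rich cells, and 0 of the 167 remained without barcodes over 10000 UMIs, against 0 and 1 UMIs in Chil1-rich cells. Opn1sw had 1 and 259 UMIs, of which 1 and 10 remained, against 0 and 4. Both genes are named after their values were seen.

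Chad fell to 160 CPM in library 1 and 96.5 CPM in library 2 in Igfbp5-rich cells, against 1068 and 897 CPM in Chil1-rich cells. The log2 fold change was -3.16 ± 0.33 (standard error, edgeR adjusted p = 0.00862), and lower in both libraries. Against Lum-rich cells Chad rose, with a log2 fold change of 1.97 (adjusted p = 0.0422). In each library 1 Igfbp5-rich cell held much of it, with 12 of the 26 Chad UMIs in library 1 and 17 of the 31 in library 2. Chad had a UMI in 9 of 45 and 9 of 46 Igfbp5-rich cells, against 52 of 78 and 38 of 56 Chil1-rich cells, and it was found mostly in the cells nearest to the Chil1-rich profile. Chad lies on chromosome 11 at 94565047 to 94569127.

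Without barcodes over 10000 UMIs in any set, 6 of 4272 genes were higher (0.14%) and 3 lower (0.0702%) against Chil1-rich cells. Tfap2b rose, with 35 and 26 UMIs in Igfbp5-rich cells, against 5 and 4 UMIs in Chil1-rich cells (log2 fold change 3.46, edgeR adjusted p = 0.0128). Cxcl12 rose to 529 and 301 CPM, against 107 and 63.0 CPM (2.17, adjusted p = 0.0343). The count also holds Nr2f1, a given marker, at 160 and 115 CPM against 14.8 and 4.50 CPM. The other higher genes were Mbd1, Ogfrl1 and Lypd1, and the lower ones were Chad, Thbs1 and Cst3. With all barcodes kept, Tfap2b had adjusted p = 0.285 and Cxcl12 0.243 in the edgeR fit, so these calls rest on leaving out the deep barcodes.

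Myoc, a gene that Chil1-rich cells hold at 7107 and 6087 CPM, stood at 2645 and 996 CPM in Igfbp5-rich cells, or 2041 CPM in library 2 without the deep barcodes. Its log2 fold change against Chil1-rich cells was -2.05 ± 0.53 and did not pass (adjusted p = 0.243). Among the small leucine-rich and hyaluronan-binding proteoglycans, 0 of 12 tested members were called and the median log2 fold change was -1.15, against 0.02 over all genes. The median for the 18 collagens tested was -0.69 and for the 13 metalloproteinases and their inhibitors -0.83, again with 0 called in each list. The dissociation-response genes, 22 tested, had a median of -0.35 and 0 called.

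Genes called against Lum-rich cells included those of secreted factors, chemokines and matrix proteins. The number of calls does not rank the sets, since without cells holding markers of other types 0 genes were higher and 3 lower against Lum-rich cells, against 12 and 9 for Chil1-rich cells. Of 7081 genes, 11 were higher (0.155%) and 16 lower (0.226%), with a median log2 fold change of 0.01 and 858 genes at an unadjusted p under 0.05. Without barcodes over 10000 UMIs, 10 of 4272 were higher (0.234%) and 15 lower (0.351%). Mmp3, which encodes the matrix-degrading stromelysin 1, was the most separated. It had 3 UMIs in 45 Igfbp5-rich cells of library 1 and 4 in 46 of library 2, against 7795 and 1935 UMIs in Lum-rich cells. That was 142-fold lower in library 1 (95% counting interval 48.6 to 689) and 118-fold lower in library 2 (46.0 to 433), with a fitted log2 fold change of -7.26 ± 0.67 (edgeR adjusted p = 0.00188). Each library's Mmp3 UMIs came from 1 Igfbp5-rich cell.

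Among the genes of the IGF system, Igfbp2 and Stc1 were lower than in Lum-rich cells. Igfbp2, another of the binding proteins, fell to 61.5 and 87.1 CPM in Igfbp5-rich cells, against 3711 and 1183 CPM in Lum-rich cells (log2 fold change -5.03 ± 0.68, adjusted p = 0.0113). Stc1, which encodes the secreted glycoprotein stanniocalcin 1, had 1 and 0 UMIs in Igfbp5-rich cells, against 593 and 87 UMIs. It was 32.4-fold lower in library 1 (counting interval 5.79 to 1282) and at least 7.07-fold lower in library 2 at the limit that a count of 0 allows (3 UMIs per library; adjusted p = 0.0340). Igfbp4, which binds insulin-like growth factors in many fibroblasts, stood at 2823 and 1123 CPM against 1596 and 2067 CPM, and Igfbp7 at 4115 and 1207 CPM against 3446 and 3115 CPM, and neither passed. In all, 0 of 13 tested IGF-system genes were higher and 2 lower, where 0.226% of all genes were lower. The median log2 fold change of the list was -0.41.

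Of 23 chemokine, complement and cytokine genes tested against Lum-rich cells, 4 were lower, where 0.226% of all genes were, and 0 higher, with a median log2 fold change of -1.40. Without the deep barcodes 2 of 20 were lower, Cxcl2 and Cxcl5, where 0.351% of all genes were. The median was then -0.99. Cxcl5 and Cxcl14 had 0 and 1 UMIs each in Igfbp5-rich cells, against 646 and 132 UMIs of Cxcl5 and 587 and 66 of Cxcl14 in Lum-rich cells. Cxcl5 was at least 11.8-fold lower in library 1 and 32.2-fold lower in library 2 (counting interval 5.68 to 1281; adjusted p = 0.0195). Cxcl14 was at least 10.7-fold lower in library 1 and 16.1-fold lower in library 2 (2.79 to 645; adjusted p = 0.0404). C1ra, which encodes the complement protease C1r, had a log2 fold change of -2.01 ± 0.33 (adjusted p = 0.0340), and Cxcl1, a neutrophil chemokine, -1.91 ± 0.34 (adjusted p = 0.0404).

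Cxcl14, C1ra, Cxcl1 and Nnmt did not pass without the barcodes over 10000 UMIs, with adjusted p of 0.0530, 0.0919, 0.150 and 0.0914. Cxcl12 of the same list stood at 529 and 180 CPM against 736 and 874 CPM and did not pass (adjusted p = 0.139).

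Adventitial and universal fibroblast genes had 2 of 18 tested members lower, where 0.226% of all genes were, 0 higher and a median of -1.01. Without the deep barcodes 3 of 15 were lower, Clec3b, Dpt and Ly6c1, where 0.351% of all genes were. The median was then -0.32. Clec3b, which encodes tetranectin, had 3 UMIs in each library in Igfbp5-rich cells, against 1947 and 176 UMIs, and was 35.5-fold lower in library 1 (counting interval 12.1 to 172) and 14.3-fold lower in library 2 (4.81 to 70.0; adjusted p = 0.0110). Dpt, which encodes the matrix protein dermatopontin, had 3 and 0 UMIs, against 469 and 141, and was 8.54-fold lower in library 1 (2.91 to 41.6) and at least 11.5-fold lower in library 2 (adjusted p = 0.0404). Pi16 of the same list, at 732 and 205 CPM against 675 and 381 CPM, did not pass (adjusted p = 0.600).

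The enzyme genes Cyp2f2, Dpep1 and Nnmt fell too. Cyp2f2, a cytochrome P450, had a log2 fold change of -4.02 ± 0.40 (adjusted p = 0.0042), at 24.6 and 24.9 CPM in Igfbp5-rich cells, against 464 and 299 CPM in Lum-rich cells. Dpep1, a membrane dipeptidase, had 6 and 4 UMIs, against 1187 and 279 (log2 fold change -3.88 ± 0.52, adjusted p = 0.0113). Nnmt, which methylates nicotinamide, had 3 and 2 UMIs, against 278 and 98, and was 5.06-fold lower in library 1 (1.72 to 24.7) and 11.9-fold lower in library 2 (3.22 to 100.0; adjusted p = 0.0426).

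**Figure D5:**
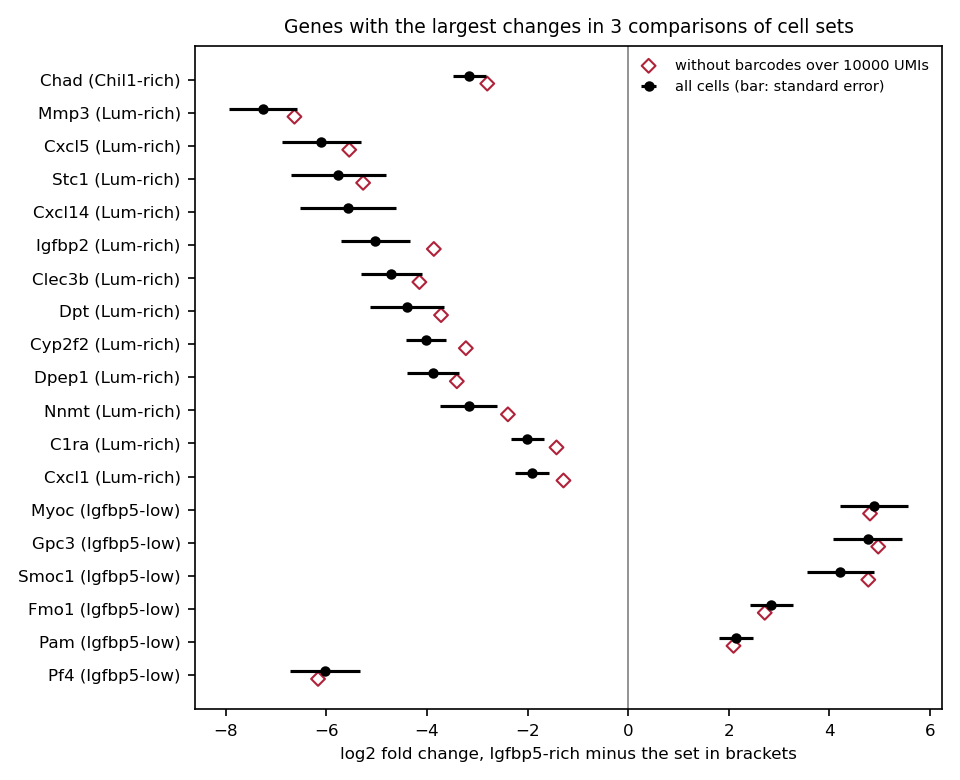
Log2 fold change (x axis) of the 19 named gene and set pairs, Igfbp5-rich minus the set in brackets. Named pairs were called, had at least 50 UMIs in each library of the higher set and the same direction in both libraries. Some larger called changes at fewer UMIs are therefore not shown. Black points with bars are the fit over all cells with its standard error, and open red diamonds the fit without barcodes over 10000 UMIs. Cxcl14 has no diamond, since no UMI of it was then left in Igfbp5-rich cells.

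Of the 11 genes called higher than in Lum-rich cells, 10 were genes of neurons or cones whose UMIs lay largely in the deep barcodes. They include Sncg, Opn1sw, Nefl, Stmn2, Fxyd7, Calb2, Cend1, Vsnl1 and Ina, named after their values were seen. Calb2 had 0 and 251 UMIs in Igfbp5-rich cells, of which 0 and 3 remained without the deep barcodes, against 10 and 22 in Lum-rich cells. Nefl had 0 and 257 UMIs, of which 0 and 3 remained, against 12 and 29. The exception was Chad.

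Without the deep barcodes, Opn1sw was not called higher than in Lum-rich cells (edgeR adjusted p = 0.824). The other neuron and cone genes named above did not pass the filter on low counts in that fit, so they were not tested. The genes called higher were Myoc, Rgs5, Foxd1, Crabp2, Chad, Thbs4, Thbd, Hhip, Igsf3 and Mbd1. Myoc rose to 2645 and 2041 CPM in Igfbp5-rich cells, against 233 and 317 CPM in Lum-rich cells (log2 fold change 3.08, edgeR adjusted p = 0.00623). Rgs5 rose to 707 and 429 CPM, against 41.9 and 109 CPM (2.85, adjusted p = 0.0472). Foxd1, a forkhead factor, had 11 UMIs in each library, against 2 and 4. The count also holds Crabp2, a given marker, at 228 and 198 CPM against 47.7 and 69.1 CPM. With all barcodes kept, edgeR gave an adjusted p of 0.0612 for Myoc and for Foxd1 and 0.254 for Rgs5.

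Extracellular matrix lists lay below the median of all genes in Igfbp5-rich against Lum-rich cells, with 0 members called in these 4 lists. The median log2 fold change was -1.20 for 18 collagens, -1.13 for 18 basement membrane genes, -0.81 for 12 proteoglycans and -0.62 for 21 microfibril and elastic fibre genes. Without the deep barcodes the medians were -0.45, -0.61, -0.22 and -0.11, where all genes had 0.02. In that fit 1 of 20 microfibril genes tested, Mfap2, was called lower, where 0.351% of all genes were. Sparc, which encodes a collagen-binding matricellular protein, stood at 5118 and 2094 CPM in Igfbp5-rich cells, against 12970 and 4514 CPM in Lum-rich cells. Col3a1, a fibrillar collagen, stood at 1347 and 607 CPM, against 3959 and 1706 CPM, and neither passed. Of 25 periocular transcription factors tested, 0 were called, with a median log2 fold change of -0.36. Without the deep barcodes the median was 0.03 over 17 tested, with Foxd1 alone higher, where 0.234% of all genes were.

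The Igfbp5-low cells meet the same limits but hold little Igfbp5, and they were mixed. In library 2, 23 of the 54 were nearest to the rod profile, and their rod markers summed to 11536 CPM and their fibroblast markers to 6344 CPM, against 113 and 35632 CPM in library 1. The sets therefore differ in more than Igfbp5. Against them, 8 of 7081 genes were higher (0.113%) and 3 lower (0.0424%), with 612 at an unadjusted p under 0.05 and a median log2 fold change of -0.03. Without barcodes over 10000 UMIs the counts were 48 of 4272 higher (1.12%) and 36 lower (0.843%). Of the 11 genes called with all barcodes, 10 were among them. The other, Wfdc17, did not pass the filter on low counts there and was not tested. Myoc rose to 2645 and 996 CPM in Igfbp5-rich cells, against 102 and 34.2 CPM in Igfbp5-low cells (log2 fold change 4.89 ± 0.68, edgeR adjusted p = 0.0368). Gpc3, which encodes the cell-surface proteoglycan glypican 3, rose to 904 and 429 CPM, against 41.0 and 17.1 CPM (4.76 ± 0.69, adjusted p = 0.0368). In both libraries it was detected in most Igfbp5-rich cells, 30 of 45 and 34 of 46.

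Smoc1, a basement membrane protein needed for eye development, had 62 and 65 UMIs in Igfbp5-rich cells, against 2 and 3 in Igfbp5-low cells. It was 18.6-fold higher in library 1 (counting interval 4.94 to 157) and 15.8-fold higher in library 2 (5.17 to 78.6; adjusted p = 0.0368). Fmo1, a flavin-containing monooxygenase, rose by 2.85 ± 0.42 on the log2 scale (adjusted p = 0.0368), and Pam, the enzyme that amidates peptide hormones, by 2.14 ± 0.34 (adjusted p = 0.0368). Entpd2, an ectonucleotidase, had 39 and 34 UMIs, against 1 and 1. Chil1-rich cells held both genes as well, with Smoc1 at 342 and 316 CPM and Gpc3 at 461 and 519 CPM.

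The genes lower in Igfbp5-rich than in Igfbp5-low cells were Pf4, Ccl8 and Wfdc17. Pf4, a chemokine of platelets and macrophages, had 2 and 1 UMIs in Igfbp5-rich cells, against 56 and 75, and was 46.6-fold lower in library 1 (12.3 to 395) and 103-fold lower in library 2 (17.9 to 4118; adjusted p = 0.0142). Ccl8 had 0 UMIs in both libraries, against 8 and 268, and Wfdc17 had 1 and 0, against 39 and 14. Without the deep barcodes, Lyz2, C1qa and Tyrobp of the same cells were lower as well, with 3 and 1, 0 and 0, and 2 and 1 UMIs, against 258 and 255, 95 and 195, and 36 and 35. In the Igfbp5-low set C1qa came from 1 of 31 cells in library 1 and 4 of 54 in library 2, and the part of such cells in the comparison was not tested.

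With the deep barcodes left out, members of several lists were higher in Igfbp5-rich than in Igfbp5-low cells. Over all genes, 1.12% were higher and 0.843% lower. The IGF system had 3 of 10 tested members higher, namely Igf2r, Igfbp4 and Igfbp7, and 0 lower, with a median log2 fold change of 0.49. Igfbp4 rose to 2823 and 1990 CPM in Igfbp5-rich cells, against 805 and 309 CPM (2.13, adjusted p = 0.0184), and Igfbp7 to 4115 and 2246 CPM, against 1772 and 788 CPM (1.31, adjusted p = 0.0372). Of 17 periocular transcription factors, 2 were higher, Foxf2 and the given marker Foxc1, and the median was 1.12. Of 16 genes of BMP and TGF-beta signalling, the target genes Id1 and Ctgf were higher, with a median of 0.64. Edn3, the endothelin that acts on neural crest and melanocytes, rose to 1052 and 806 CPM, against 175 and 95.7 CPM (2.80, adjusted p = 0.00543).

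Of 9 proteoglycans tested without the deep barcodes, 3 were lower, Fmod, Prelp and Prg4, where 0.843% of all genes were. In that list 4 lay above 0 and the median was -0.43. With all barcodes 0 of 12 were called and the median was 0.17. Fmod stood at 437 and 864 CPM in Igfbp5-rich cells, against 5049 and 1848 CPM in Igfbp5-low cells (log2 fold change -2.44, adjusted p = 0.0469). All genes tested had a median of 0.00 there. The 22 dissociation-response genes had 0 called and a median of 0.72, with 20 above 0.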

How the data were processed

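The deposited matrices hold raw UMI counts per gene and barcode for 2 droplet libraries of 4764 and 6220 barcodes, with 22510387 and 30683405 UMIs over 33456 genes. The authors counted them with Cell Ranger 3.1.0, per the file headers, and the submitters' processing notes also name CASAVA 1.8, Seurat and mm10. No cell annotation was used. Barcodes were filtered on 500 or more detected genes and a mitochondrial share of no more than 30%. Cell sets were chosen by the count limits given in the report, and counts were summed per set and library. Sums were fitted with edgeR 4.0.16 (TMM, filterByExpr, quasi-likelihood test, library as a block) in R 4.3.3, with Benjamini-Hochberg adjustment over 7081 genes. The libraries pair the sums because each pair comes from the same tissue pool. DESeq2 1.42.0 was an alternative. The scripts used Python 3.11.15 and scanpy 1.11.5 and were tested on simulated data.

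The members and lists were chosen with earlier results of these data known. Named genes were the 10 called genes with the largest change in each direction and up to 4 per list, with at least 50 UMIs in each library of the higher set and the same direction in both libraries. Each library is 1 pool, and the block takes the average difference between the 2 pools out of the fit. The p-values therefore rest on how far differences between sets vary from pool to pool, over all sets together. They do not cover the average spread between the pools. Intervals cover counting error only. No doublet caller was run. Some genes are not reported here. The libraries share 11 barcode sequences, of which 0 belong to Igfbp5-rich cells. Gene positions are those of GRCm38 for 32655 of 33456 identifiers.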

Additional observations from a re-analysis of the deposited data

How the results depend on the processing

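Counts of genes called higher and lower were 2 and 1 against Chil1-rich cells, 11 and 16 against Lum-rich cells, and 8 and 3 against Igfbp5-low cells. In that order of sets they were 4 and 7, 9 and 11, and 14 and 8 with DESeq2's Wald test. They were 133 and 89, 220 and 314, and 149 and 76 with no filter on low counts. With cells thinned to 2000 UMIs they were 3 and 5, 2 and 7, and 30 and 16. With a mitochondrial limit of 15% they were 6 and 7, 20 and 38, and 14 and 9. With at least 20 Igfbp5 UMIs they were 2 and 2, 6 and 4, and 32 and 4. With at least 20 Igfbp5 UMIs per 10000 they were 0 and 0, 3 and 5, and 80 and 28. With only the 2 compared sets in the fit they were 6 and 11, 147 and 148, and 19 and 14. Without the contractile set they were 2 and 2, 4 and 6, and 2 and 3. Without cells holding markers of other types they were 12 and 9, 0 and 3, and 0 and 0. Without barcodes over 10000 UMIs, an alternative chosen after seeing the data, they were 6 and 3, 10 and 15, and 48 and 36. With no replicate block for the library every count was 0, with 256, 309 and 365 genes at an unadjusted p under 0.05 in edgeR. The cause of these differences was not tested. DESeq2's size factors, and leaving out the barcode sequences found in both libraries, kept each count within 1.5 times.

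Of the 19 named gene and set pairs, 0 reversed under any alternative that gave a value, which thinning did for 14 and leaving out cells with markers of other types for 16. All 19 lost their call without the block, 13 without cells holding markers of other types, 10 without the contractile set, 9 with at least 20 Igfbp5 UMIs, 8 with at least 20 per 10000, 7 with DESeq2, 4 with thinned cells, 4 without the deep barcodes and 1 with only the compared sets. Each library alone gives no test, so counts of calls have no value there. With either library left out, 9 of the 19 fold changes moved by more than the SD between the libraries. A value from 1 library is a difference of log CPM with a prior count of 2, not an edgeR fit. The change of estimator and the loss of a library cannot be told apart in these movements. The number of Igfbp5-rich cells was 24 and 25 with the higher Igfbp5 minimum, 62 and 65 with the limit per 10000 UMIs, and 25 and 21 without cells holding markers of other types. Sub-clusters numbered 2 at resolution 0.5 and 6 at resolution 1. With 162566 UMIs in library 1 and 156263 in library 2 up to 10000 UMIs per barcode, genes of few UMIs could not be compared at this depth.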

Other observations

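Genes that respond to tissue dissociation stood higher in library 2 than in library 1. Among the Igfbp5-rich cells of at most 10000 UMIs, 22 of 22 such genes were higher in library 2, with a median log2 ratio of 1.36. The Chil1-rich cells had 19 of 22 higher (median 1.28), the Lum-rich cells 22 of 22 (1.39) and the contractile cells 22 of 22 (1.53), so the shift was found in these sets as well. With the deep barcodes kept, 18 of 22 were higher among the Igfbp5-rich cells. With 1 library each, no test of it can be made. Over 7081 genes, the log levels of the Igfbp5-rich sums in both libraries had a Pearson r of 0.723 and a Spearman rho of 0.624, and 0.819 and 0.739 without the deep barcodes, a description across genes, which are not independent replicates.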
